A study of Canis lupus familiaris with 14 samples.

Results

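MYBL2, FOXM1, E2F1, E2F2, E2F7 and E2F8 are 6 transcription factors of the cell cycle, chosen by name among the 30951 genes of a count table of canine osteosarcoma and bone. Their identifiers were taken from the pairs of symbol and identifier in the supplementary tables of the study, which gave 1 identifier for each of the 6. The identifiers are ENSCAFG00000009336 for MYBL2, ENSCAFG00000015642 for FOXM1, ENSCAFG00000007429 for E2F1, ENSCAFG00000013273 for E2F2, ENSCAFG00000005718 for E2F7 and ENSCAFG00000009431 for E2F8. All 6 had at least 1 count and entered the test, as did 27655 genes in all. The rule named genes without their measured values, but it left out genes without a paired symbol. Such pairs exist mostly for genes that the study calls in these same libraries. The genes were also chosen with earlier results of these data known. A count of factors called is therefore not independent evidence of a direction.

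Osteosarcoma is a malignant tumor of bone whose cells make bone matrix. RNA was sequenced from the primary tumor and from a phalanx (P2) of the same animal in 7 dogs, A to G, which gave 7 tumor and 7 bone libraries. Dogs A and F were Golden Retrievers, B a Rottweiler, C a Doberman Pinscher, D and G Greyhounds, and E a Great Pyranees, as the labels spell it. The tumors lay in the left distal radius (A, C and E), the right distal radius (F), the left proximal humerus (D), the left distal femur (B) and the right distal tibia (G). All tissue was taken before chemotherapy from castrated males or spayed females without visible lung metastases on radiographs. The phalanx was depleted of marrow, and bone and tumor went through different extraction procedures, so the tissue and its extraction cannot be told apart. Each tissue of each dog is a single piece of bulk tissue and a single library, in which more dividing cells and more RNA of a gene in each cell cannot be told apart. Total counts ranged from 22564544 to 34479429 in bone and from 18650945 to 32887213 in tumor. The tumor of dog A and the bone of dog B had the lowest RNA integrity by the methods of the study.

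E2F proteins bind the promoters of genes for DNA synthesis and are held in check by the pocket proteins RB1, RBL1 and RBL2 until cyclin-dependent kinases release them at the end of G1. E2F1 and E2F2 are activators that bind DNA with a DP partner. E2F7 and E2F8 are atypical members that bind DNA without a DP partner and repress the same genes later in S phase, and they are themselves E2F targets. MYBL2 (B-MYB) is also an E2F target. Its protein joins the MuvB complex in S phase and prepares the genes of G2 and mitosis, to which FOXM1 is then recruited as their activator. MKI67 encodes the Ki-67 antigen that pathologists stain to count dividing cells, and TOP2A encodes DNA topoisomerase II alpha, which untangles chromosomes before they separate.

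All 6 factors were higher in tumor than in bone, in 7 of 7 dogs each, with log2 fold changes from 1.69 for E2F1 to 3.03 for MYBL2. The question of this comparison was which genes differ between a tumor and normal bone of the same patient. All 6 passed an FDR of 0.05 in edgeR's quasi-likelihood test with the dog in the design, in which 1.76% of all genes passed as higher and 2.14% as lower in tumor. The median log2 fold change over all genes was -0.05, against 2.78 over the 6 factors. Among the 2267 genes with a paired symbol, which the 6 had to have, 20.5% passed as higher and 22.6% as lower, with a median of -0.79. Levels below are normalized counts, which are counts scaled by TMM factors to a common library size, and they are compared between libraries for the same gene only. In the RefSeq annotation of another dog assembly FOXM1 overlaps the protein-coding gene RHNO1, MYBL2 an snRNA gene, E2F7 a pseudogene, E2F8 an lncRNA gene and TOP2A an lncRNA gene and a pseudogene, while E2F1, E2F2 and MKI67 overlap none. Reads from overlapping parts cannot be told apart where the strand setting is not stated.

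In bone, MYBL2 was lowest in dog G, at 158 normalized counts, and highest in dog A, at 665, with a median of 308. In tumor it ranged from 1298 in dog E to 7633 in dog F, with a median of 2571. The ranges did not overlap, and the tumor of dog F stood well above the other tumors. Mean levels rose from 349 ± 170 to 3094 ± 2134 (SD, n = 7), with a log2 fold change of 3.03 ± 0.43 (SE, edgeR FDR = 0.00614). Within single dogs the rise, as the difference of log2(normalized count + 0.5), was 1.72 in dog E and 1.95 in dog A but 4.37 in dog G and 4.91 in dog F. Dogs F and G combined low bone levels with the highest tumor levels.

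FOXM1, the activator of mitotic genes, ranged from 104 (dog B) to 250.4 (dog A) normalized counts in bone, with a median of 131. In tumor the lowest value was 496 (dog E), the median 1209 and the highest 2128 (dog F). Tumors D and E lay at about the same low level, and the other tumors lay at more than double their values. The log2 fold change was 2.83 ± 0.35 (SE, edgeR FDR = 0.00351), from means of 154 ± 54.3 in bone and 1165 ± 562 in tumor (SD, n = 7). Single dogs rose by 1.25 (dog E) to 4.09 (dog F) on the log2 scale.

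E2F1, an activator of S phase genes, had the smallest log2 fold change of the factors. Its bone levels ran from 138 (dog F) through a median of 213 to 367 (dog E), and its tumor levels from 515 (dog A) through a median of 703 to 1019 (dog G). The highest bone value was below the lowest tumor value, and the 7 tumors were within 1.98-fold of each other. The means were 235 ± 73.9 and 749 ± 193 normalized counts (SD, n = 7), and the log2 fold change was 1.69 ± 0.26 (SE, edgeR FDR = 0.00849). Dogs A and E, with the highest bone levels, rose by 0.89 and 0.75, and dog F, with the lowest bone level, rose by 2.72.

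E2F2, the other activator, had the fewest counts of the 6 genes. Its bone levels were 2.86 normalized counts at the lowest (dog A), 11.7 at the median and 21.4 at the highest (dog B). In tumor it ranged from 26.1 in dog E to 240.3 in dog C, with a median of 54.3. The groups did not overlap, although the bone of dog B and the tumor of dog E were close. The bone of dog A had only 3 counts, so its tumor to bone ratio of 17.5 has a 95% interval from 5.37 to 89.9, which covers counting error only. The log2 fold change was 2.72 ± 0.48 (SE, edgeR FDR = 0.0145), from means of 12.1 ± 5.62 and 92.2 ± 75.0 (SD, n = 7). Without dogs A and B, the animals with the lowest RNA integrity, E2F2 was no longer called (edgeR FDR = 0.111 with 5 dogs), with a log2 fold change of 2.52. The same omission lowered the number of all genes called from 1079 to 270.

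E2F7 and E2F8, the atypical repressors, also rose. E2F7 ranged from 49.5 (dog A) to 89.4 (dog E) in bone, with a median of 56.1, and from 86.8 (dog A) to 644 (dog F) in tumor, with a median of 260. It was the factor whose groups overlapped, since the tumor of dog A lay just below the bone of dog E. The log2 fold change of E2F7 was 2.04 ± 0.30 (SE, edgeR FDR = 0.00711), from means of 62.4 ± 15.3 and 286 ± 171 (SD, n = 7). Between the extremes of dogs A and F, the tumors of the other 5 dogs held 226 to 285 normalized counts, a narrow band.

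E2F8 ranged from 12.6 (dog G) to 65.7 (dog A) in bone, with a median of 45.4, and from 141 (dog E) to 558 (dog F) in tumor, with a median of 228. The highest bone was below the lowest tumor. The log2 fold change was 2.83 ± 0.43 (SE, edgeR FDR = 0.00755), from means of 40.0 ± 18.9 and 288 ± 160 (SD, n = 7). The tumors of dogs A and E were level at the bottom for E2F8, whereas for FOXM1 the tumor of dog A was the third highest.

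For 5 of the 6 factors the lowest tumor was above the highest bone, which was so for 1.4% of all genes. The markers MKI67 (log2 fold change 3.03, edgeR FDR = 0.00286) and TOP2A (3.25, edgeR FDR = 0.00281) behaved likewise in the same test. The share of 1.4% is over all 27655 genes. The share among the 2267 genes with a paired symbol, from which the factors came, was not computed.

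**Figure D1:**
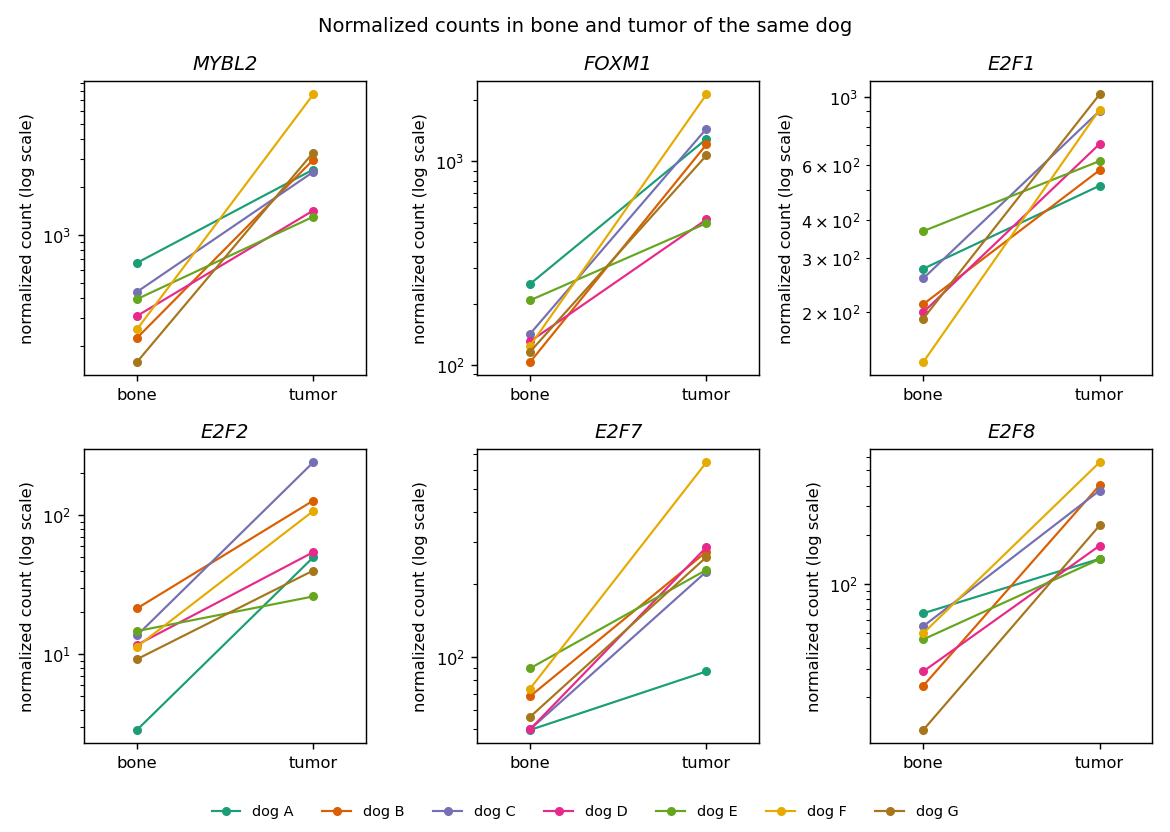
Normalized counts of the 6 factors in bone and tumor, on a log scale with its own range in each panel; each line joins the bone and the tumor of 1 dog. All lines rise, from 2.86 to 49.8 for E2F2 in dog A and from 254 to 7633 for MYBL2 in dog F, and E2F7 is the gene in which the lowest tumor (86.8, dog A) is below the highest bone (89.4, dog E).

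In the order of the mean rise within dogs, MYBL2 (3.05) came first, followed by FOXM1 (2.82), E2F8 (2.82), E2F2 (2.68), E2F7 (2.02) and E2F1 (1.69). No pair of neighbours in that order passed a test against the spread between dogs (exact sign-flip tests over 7 dogs, two-sided, p from 0.0625 to 0.984). The neighbours were picked by sorting the same means, so these tests cannot show that neighbours do not differ. Between the ends of the order, MYBL2 rose by 1.36 ± 0.77 (SD) more than E2F1, with a difference above 0 in 7 of 7 dogs, given with no test because the pair was picked as the ends.

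The size of the rise depended on the dog. Dog E had the smallest rise of MYBL2, FOXM1, E2F1 and E2F2, and dog A the smallest rise of E2F7 and E2F8. Dog F had the largest rise of MYBL2, FOXM1, E2F1 and E2F7, dog C of E2F2 and dog G of E2F8. Dog A was uneven, with rises of 3.91 for E2F2 and 2.36 for FOXM1 but 0.80 for E2F7 and 0.89 for E2F1.

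**Figure D2:**
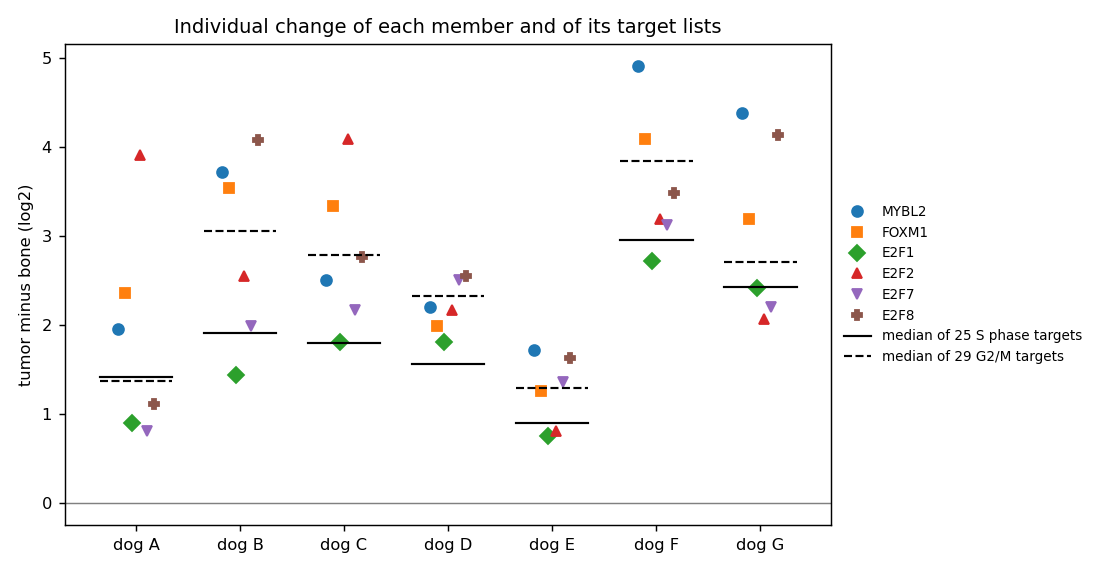
Difference between tumor and bone of the same dog, as log2(normalized count + 0.5), for each factor (symbols) and the median of 25 S phase and 29 G2/M target genes (solid and dashed lines). Every symbol lies above 0; dog E lies low for most factors (0.75 to 1.72) and dog F high (2.72 to 4.91), and the G2/M median runs from 1.30 in dog E to 3.84 in dog F.

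Across the 7 tumors, by r and unadjusted p, MYBL2, FOXM1 and E2F8 went with MKI67, and MYBL2 and FOXM1 with TOP2A. No relation passed adjustment over all genes. With MKI67, E2F2 passed by rho but not by r, and MYBL2 by r but not by rho. E2F1 and E2F7 showed no clear relation with either marker. The question here was whether the factors track the markers of dividing cells from tumor to tumor. Each relation was computed as Pearson's r and Spearman's rho over log2 normalized counts, with exact permutation over all 5040 pairings, two-sided. In all, 24 relations were computed, 12 in each tissue. None passed after adjustment over the 25821 genes tested (adjusted p = 0.885 with MKI67 for MYBL2, FOXM1, E2F2, E2F7 and E2F8 and 0.945 for E2F1; adjusted p = 0.947 with TOP2A for all 6), and neither did any other gene. The exact p-values that follow are unadjusted. At p under 0.05 and r above 0, 3 of 6 factors passed with MKI67, against 2.78% of all genes, and 2 of 6 with TOP2A, against 2.74%.

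FOXM1 had r = 0.90 with MKI67 (exact permutation p = 0.00139) and rho = 0.93 (exact p = 0.00675). The order of tumors was nearly the same, with F and C at the top and E at the bottom for both genes. MYBL2 had r = 0.85 with MKI67 (exact permutation p = 0.0312) but a rho of 0.54 (exact p = 0.236). Tumor G had rank 2 for MYBL2 but rank 6 for MKI67, and without tumor G r was 0.93 (exact permutation p = 0.00972). E2F8 had r = 0.81 (exact permutation p = 0.0185) and rho = 0.82 (exact p = 0.0341). E2F2 had r = 0.75 (exact permutation p = 0.053) and rho = 0.86 (exact p = 0.0238). E2F7 had r = 0.38 (exact permutation p = 0.362) and rho = 0.25 (exact p = 0.595), and E2F1 had r = 0.26 (exact permutation p = 0.591) and rho = 0.11 (exact p = 0.84).

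With TOP2A, MYBL2 had r = 0.89 (exact permutation p = 0.0141) and rho = 0.89 (exact p = 0.0123). FOXM1 had r = 0.85 (exact permutation p = 0.0149) and rho = 0.75 (exact p = 0.0663). The remaining values of r were 0.55 for E2F8, 0.39 for E2F2, 0.29 for E2F1 and 0.23 for E2F7 (exact permutation p from 0.207 to 0.624), with rho of 0.54, 0.18, 0.18 and 0.14 (exact p from 0.236 to 0.783). Tumor A was the second highest tumor for TOP2A but the lowest for E2F1 and E2F7. Without tumor A, one of the libraries with the lowest RNA integrity, E2F8 came to pass with TOP2A (r = 0.82, exact p = 0.0264), and r was 0.81 for E2F7 (exact p = 0.0806) and 0.61 for E2F1 (exact p = 0.214).

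The 2 tumors farthest from the median of both markers were E at the bottom and F at the top. Without them, 0 of 6 factors passed with either marker, so the relations that passed do not hold without them at this threshold, although r of FOXM1 with MKI67 stayed high. Over the other 5 tumors, r with MKI67 was 0.74 for FOXM1 (exact permutation p = 0.0583), 0.32 for MYBL2 (exact p = 0.717) and 0.58 for E2F8 (exact p = 0.292), whereas that of E2F2 was 0.81 (exact p = 0.133). Over the same 5 tumors, r with TOP2A was 0.57 for MYBL2 (exact p = 0.308) and 0.55 for FOXM1 (exact p = 0.333). The same held for the markers themselves, whose r with each other fell from 0.87 (exact permutation p = 0.0214, rho = 0.57, exact p = 0.2) to 0.10 (exact p = 0.908). Without tumor E alone 0 of 6 factors passed with MKI67, although r was 0.84 for FOXM1 (exact p = 0.0542), 0.80 for MYBL2 (exact p = 0.0931) and 0.78 for E2F8 (exact p = 0.0611), and with TOP2A MYBL2 passed (r = 0.88, exact p = 0.0181) but FOXM1 did not (r = 0.76, exact p = 0.0958). Without tumor F alone, MYBL2 (r = 0.69, exact p = 0.154) and E2F8 (r = 0.67, exact p = 0.144) no longer passed with MKI67. FOXM1 still passed with MKI67 (r = 0.85, exact p = 0.00972) and E2F2 came to pass (r = 0.83, exact p = 0.0472). With TOP2A 1 factor, MYBL2, passed without tumor F (r = 0.79, exact p = 0.0361). MYBL2 also did not pass with MKI67 without tumor B (r = 0.85, exact p = 0.0528) or tumor D (r = 0.87, exact p = 0.0639) alone. Within the 5 forelimb tumors 2 factors passed with MKI67 and 1 with TOP2A, while r stayed at 0.83 for E2F8 with MKI67 (exact p = 0.0583) and 0.87 for FOXM1 with TOP2A (exact p = 0.0583), and the 2 hindlimb tumors are too few for a value. For differences between tumor and bone of the same dog (replicate block), FOXM1 alone passed with MKI67 (r = 0.92, exact p = 0.00417), with r = 0.74 for MYBL2 (exact p = 0.0688) and 0.70 for E2F8 (exact p = 0.0766), and with TOP2A the same 2 factors passed, MYBL2 (r = 0.88, exact p = 0.00873) and FOXM1 (r = 0.83, exact p = 0.0204). In those differences r with TOP2A was also higher than in tumors for E2F8 (0.74, exact p = 0.0577) and E2F1 (0.73, exact p = 0.0657), which did not pass. For E2F7 r with TOP2A was 0.44 (exact p = 0.32). With MKI67, r of the differences was 0.51 for E2F1 (exact p = 0.247) and 0.49 for E2F7 (exact p = 0.266). For E2F2 with MKI67 it was 0.48 (exact p = 0.281), lower than the 0.75 across tumors. As a description over the 7 tumors, r of the log2 level with the total count ran from -0.62 (E2F2) to 0.38 (E2F7) and with the TMM factor from 0.22 (MYBL2) to 0.76 (E2F2), and the part of these in the relations was not tested.

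**Figure D3:**
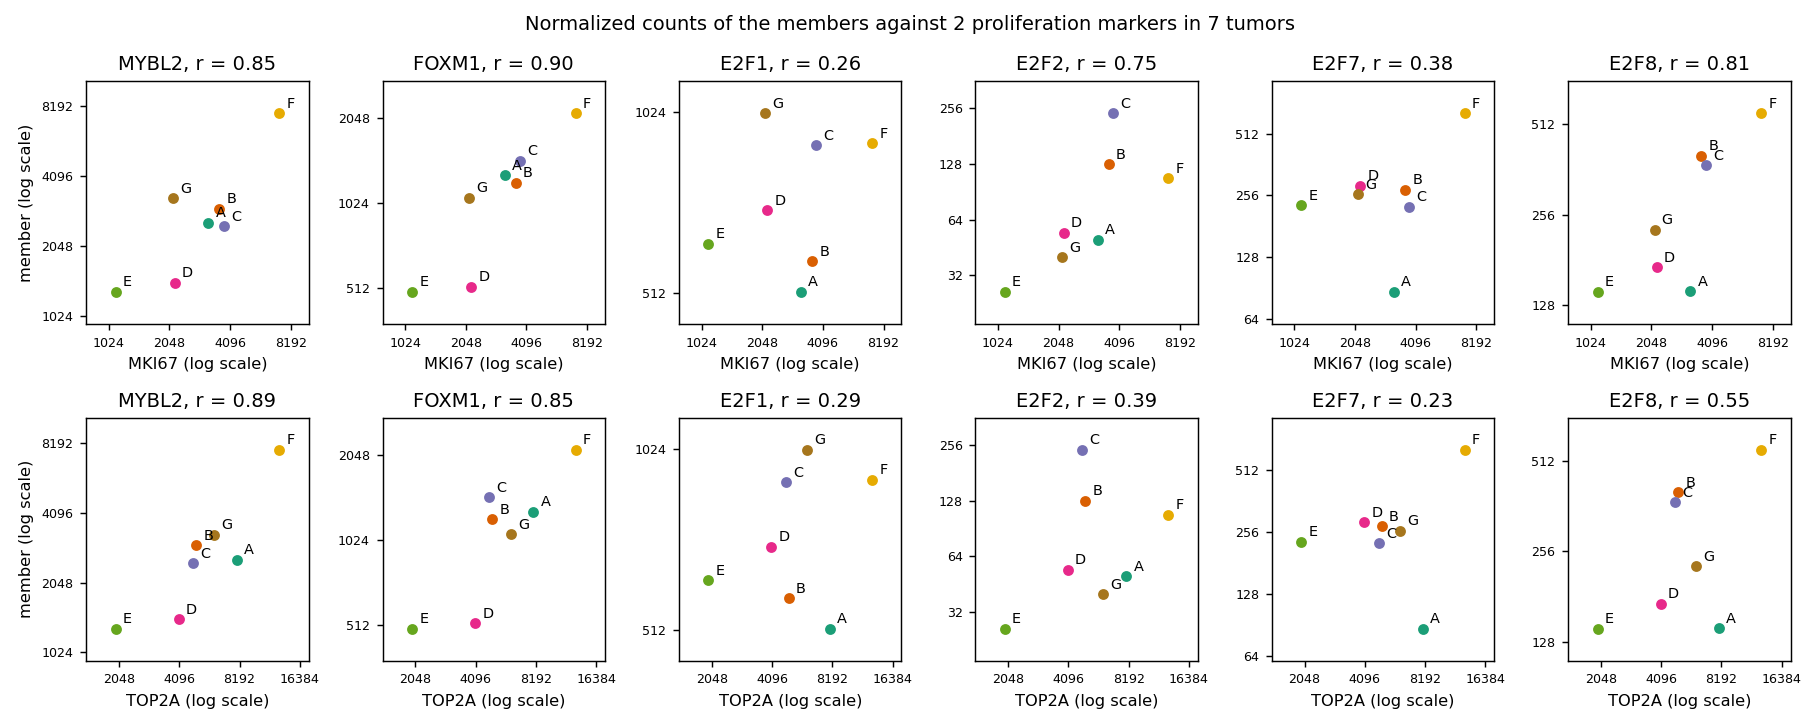
Normalized counts of each factor (vertical axes) against MKI67 (upper row) and TOP2A (lower row) in the 7 tumors, on log axes; letters name the dog and r is Pearson's. Tumor F lies at the upper right for MYBL2, FOXM1, E2F7 and E2F8 and tumor E at the left, while tumor A is lowest for E2F1 (515) and E2F7 (86.8) at a TOP2A level of 7965.

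In the 7 bones the picture differed from gene to gene. By r, 0 of 6 factors passed with MKI67, where 2.02% of all genes did, and 2 of 6 passed with TOP2A, where 2.17% did. With MKI67 E2F8 had r = 0.67 (exact permutation p = 0.0917) and rho = 0.79 (exact p = 0.048). E2F8 had r = 0.94 with TOP2A in bone (exact permutation p = 0.000794; rho = 0.89, exact p = 0.0123), and MYBL2 had r = 0.83 (exact permutation p = 0.0127; rho = 0.75, exact p = 0.0663). Without the 2 bones farthest from the median, B and G, these were 0.73 (exact p = 0.175) and 0.56 (exact p = 0.367). E2F2 went the other way from MKI67, with r = -0.63 (exact permutation p = 0.15; rho = -0.64, exact p = 0.139), and r was -0.86 without bones B and G (exact p = 0.00833). With TOP2A its r was -0.40 (exact permutation p = 0.386; rho = -0.32, exact p = 0.498), and -0.91 without these bones (exact p = 0.0833). Its bone counts were few, between 3 and 20. After adjustment over all genes none of the relations in bone passed either.

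Among themselves, the 6 factors were positively related in all 15 pairs across tumors, with a median r of 0.50 and a range from 0.22 to 0.91, given as a description. Without tumors E and F, r of MYBL2 with E2F7 went from 0.50 to -0.15. Without tumors A and F, r of E2F7 with E2F8 went from 0.70 to -0.008. The other pairs stayed positive without the 2 tumors farthest from the median of 1 gene of the pair. In bone 10 of 15 pairs were positive, with a median of 0.13 and a range from -0.67 to 0.87. By r, MYBL2 and FOXM1 formed the closest pair in tumor (r = 0.91, exact permutation p = 0.00933; rho = 0.64, exact p = 0.139), but by rho 4 pairs were closer, up to 0.75 for MYBL2 with E2F8 and E2F2 with E2F8. The r of MYBL2 and FOXM1 was 0.82 without tumors E and F (exact p = 0.2). Their r in bone was 0.85 (exact permutation p = 0.00992; rho = 0.93, exact p = 0.00675), and 0.76 without bones A and G (exact p = 0.108). On the log2 scale tumors varied least in E2F1 (SD 0.38) and most in E2F2 (SD 1.10), with MYBL2, FOXM1, E2F7 and E2F8 between 0.77 and 0.85.

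The rise of a factor can be set against the rise of a marker in the same dog, which cancels the scaling of the libraries up to the pseudocount. E2F1 and E2F7 rose less than both markers, while MYBL2, FOXM1, E2F2 and E2F8 did not pass the test against either marker on this scale. The result for FOXM1, E2F2 and E2F8 depended on the scale: after the variance stabilizing transformation they lay below both markers (exact sign-flip p = 0.0156, and 0.0312 for FOXM1 against TOP2A, n = 7), and with a pseudocount of 5 E2F8 lay below TOP2A (-0.57, exact p = 0.0469). On the reported scale FOXM1 lay below TOP2A when dog C was left out (-0.57, exact p = 0.0312). The difference of E2F2 from MKI67 moved from -0.35 to -0.76 with a pseudocount of 5, -1.73 after the transformation and -0.09 without dog B. Over all genes, 89.5% rose less than MKI67 and 91.6% less than TOP2A by the same unadjusted test, and 0.0108% rose more than each, so that 2 of 6 factors below each marker is read against a background in which nearly every gene lies below.

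E2F1 had a mean difference from MKI67 of -1.34 ± 0.86 on the log2 scale (SD, n = 7; below in 7 of 7 dogs; exact sign-flip test, two-sided p = 0.0156, the smallest that 7 dogs allow, adjusted over all genes 0.0206) and from TOP2A of -1.55 ± 0.68 (below in 7 of 7 dogs; exact p = 0.0156, adjusted 0.0196). The gap to MKI67 was widest in dog B (-2.97) and narrowest in dog G (-0.50). E2F7 had mean differences of -1.01 ± 0.88 from MKI67 (below in 6 of 7 dogs; exact p = 0.0312, adjusted 0.0363) and of -1.22 ± 0.94 from TOP2A (below in 7 of 7 dogs; exact p = 0.0156, adjusted 0.0196). The difference from MKI67 for E2F7 stayed below 0 but had exact p = 0.0625 when any one of dogs A, B, C, E, F and G was left out (-0.77 without dog B, the smallest).

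For MYBL2 the mean difference was 0.03 ± 0.86 against MKI67 (exact sign-flip p = 0.875, n = 7) and -0.19 ± 0.63 against TOP2A (exact p = 0.484), with 4 dogs below and 3 above MKI67. FOXM1 was the steadiest, at -0.21 ± 0.40 against MKI67 (exact p = 0.234, n = 7) and -0.42 ± 0.58 against TOP2A (exact p = 0.109). E2F8 differed by -0.21 ± 0.84 and -0.42 ± 0.80, and E2F2 by -0.35 ± 1.09 and -0.56 ± 1.22 (exact p from 0.172 to 0.516, n = 7). Single dogs moved these means: against TOP2A, E2F8 was at -0.14 without dog A and E2F2 at -0.25 without dog G. MYBL2 against TOP2A was at -0.007 without dog A and -0.35 without dog F, and FOXM1 against MKI67 was at -0.09 without dog B. In dogs F and G MYBL2 rose more than MKI67, by 0.89 and 1.46, and in dogs A, B and C it rose less, with differences of -0.70, -0.69 and -0.71.

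**Figure D4:**
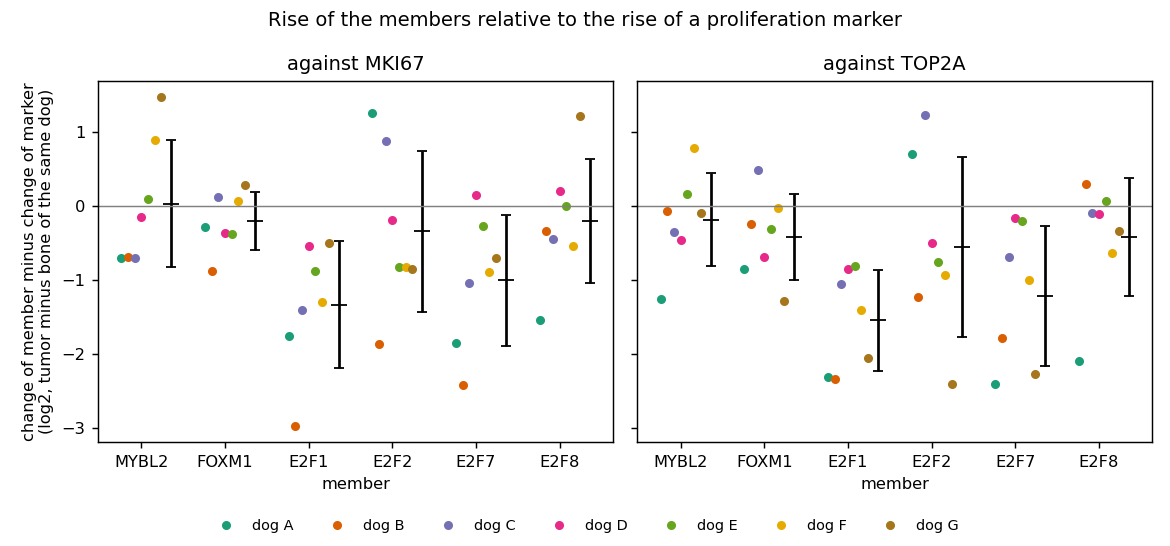
Rise of each factor minus the rise of MKI67 (left) or TOP2A (right) in the same dog, in log2 units; points are dogs and the bars give the mean ± SD over 7 dogs. All 7 points of E2F1 lie below 0 in both panels (means -1.34 and -1.55), and for FOXM1 4 of 7 points lie below 0 against MKI67 and 6 of 7 against TOP2A (means -0.21 and -0.42).

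The regulators and targets around the factors could be described only where the study paired a symbol with an identifier. Such pairs exist mostly for genes that the study calls, so the counts that follow are not independent evidence of a direction. Each count below is to be read against the shares of 20.5% higher and 22.6% lower among genes with a paired symbol. None of 6 other E2F and DP genes, 5 MuvB core genes or 2 other MYB genes was paired, nor were RB1 and RBL1. RBL2, the pocket protein p130 that represses E2F targets in resting cells, fell from 1925 ± 305 to 787 ± 159 normalized counts (SD, n = 7), with a log2 fold change of -1.30 (edgeR FDR = 0.00486, lower in 7 of 7 dogs). Of 15 genes for G1 cyclins, kinases and inhibitors, 7 were paired and 3 rose, which were CCNE1, the E-type cyclin (1.50, FDR = 0.0252), CDK4, the partner of D-type cyclins (1.15, FDR = 0.0337), and CDK2, the partner of cyclin E (0.96, FDR = 0.038). The other 4 did not pass: the log2 fold change was 0.90 for CCND3, 1.05 for CDK6, 1.11 for CDC25A and -1.01 for CDKN1B, the inhibitor p27 (FDR from 0.0708 to 0.214).

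Of 31 E2F target genes of S phase, 25 were paired, and 22 rose and 0 fell, with a median log2 fold change of 1.80 against -0.05 over all genes. The values ran from 0.67 for EZH2, a histone methyltransferase that did not pass (FDR = 0.0716), to 3.31 for CLSPN, which relays the replication checkpoint. CDC6, which loads the replicative helicase, rose by 3.29 (edgeR FDR = 0.00507) and MCM6, a subunit of that helicase, by 1.02 (FDR = 0.0354). PCNA, the sliding clamp of DNA polymerase, and GINS1 had values of 0.99 and 1.15 and did not pass (FDR = 0.067 and 0.073).

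Of 31 target genes of MYBL2, FOXM1 and MuvB in G2 and mitosis, 29 were paired, and 28 rose and 0 fell, with a median of 2.54. UBE2C, the ubiquitin-conjugating enzyme of the anaphase-promoting complex, rose by 3.17 (edgeR FDR = 0.00474), CCNB1, the mitotic cyclin, by 2.62 (FDR = 0.00419) and PLK1, a mitotic kinase, by 2.24 (FDR = 0.00474). HMMR, a spindle protein, did not pass (1.41, FDR = 0.0919, higher in 5 of 7 dogs).

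The target lists also varied with the dog. The median rise of the G2/M targets was 1.30 in dog E and 1.37 in dog A, 2.32 in D, 2.71 in G, 2.79 in C, 3.05 in B and 3.84 in F. For the S phase targets it was 0.90 in dog E, 1.41 in A, 1.56 in D, 1.79 in C, 1.91 in B, 2.42 in G and 2.96 in F. Dogs E and A were the lowest and dog F the highest in both lists. Across tumors, as a description over 7 libraries that share their depth, the median r of the 25 S phase targets was 0.78 with MYBL2, 0.65 with FOXM1, 0.60 with E2F1 and 0.67 with MKI67. For the 29 G2/M targets it was 0.73 with MYBL2, 0.67 with FOXM1, 0.41 with E2F1 and 0.84 with MKI67.

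The genes whose pattern was most like each factor were ranked by the r of deviations from the tissue mean over 14 libraries, among the 14460 genes above a minimum mean level. For MYBL2 these were CENPT, a centromere protein (r = 0.97), TK1, thymidine kinase (0.94), ASF1B, a histone chaperone (0.93), CDCA3 (0.93) and ENSCAFG00000006693 (0.93). For FOXM1 they were STMN1, which destabilizes microtubules (0.91), CDCA3 (0.90) and PKMYT1, a kinase that inhibits CDK1 (0.90). For E2F8 they were UBE2C (0.94), NDC80, a kinetochore protein (0.91), and CENPT (0.90). CENPT and CDCA3 were each listed for 2 factors. For E2F1 they were PYCR3, of proline synthesis (0.85), ENSCAFG00000019185 (0.84) and ENSCAFG00000046000 (0.83). For E2F2 they were ENSCAFG00000019839 (0.86), BRCA1, a DNA repair gene (0.83), and OAS3, an interferon-induced gene (0.80). For E2F7 all 3 were genes without a paired symbol, ENSCAFG00000017620, ENSCAFG00000004679 and ENSCAFG00000018216 (0.94 to 0.95). Between tumor and bone, none of the 3 genes for E2F7 (edgeR FDR from 0.448 to 0.954) or the 3 for E2F1 (FDR from 0.0534 to 0.888) passed, nor did 2 of the 3 for E2F2 and ENSCAFG00000006693 for MYBL2, while the others did.

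Markers of other cells are given for the whole lists. By the edgeR test all 4 paired adipocyte and both paired osteoblast markers were lower in tumor, as were 2 of 5 osteocyte markers, SOST and MEPE (the other 3 had FDR from 0.0516 to 0.407), and none of the paired osteoclast, erythroid, granulocyte or muscle markers passed. The labelled bone was checked with 5 osteocyte markers, all paired (SOST, MEPE, DMP1, PHEX and FGF23), whose summed level was 8054 to 137000 normalized counts in bone and 115 to 13754 in tumor. SOST, MEPE, DMP1 and PHEX were above 0 in all 14 libraries and FGF23 was at 0 in 3. The 2 of 7 osteoblast markers that were paired, BGLAP and SPP1, summed to 58928 to 141890 in bone and 3641 to 42677 in tumor. The 5 of 6 paired osteoclast markers summed to 123440 to 551540 in bone and 6501 to 635330 in tumor, and the 4 of 5 paired adipocyte markers to 9387 to 64327 in bone and 77.4 to 3817 in tumor. All of these were above 0 in every library. Tumor F, highest in MYBL2, FOXM1, E2F7 and E2F8, had the lowest osteoblast, osteoclast and adipocyte sums (3641, 6501 and 77.4). Tumor E, lowest in MYBL2, FOXM1, E2F2 and E2F8, had the highest osteoblast sum, 42677. Tumor D, low in MYBL2 and FOXM1, had the highest osteoclast sum, 635330. Single markers were paired for erythroid cells (EPB42, 20.0 to 49.5 in bone and 6.16 to 18.7 in tumor), granulocyte precursors (MPO, 4.67 to 188 and 13.1 to 392) and skeletal muscle (ACTA1, 0 to 685 and 397 to 6337, at 0 in 1 library), and none for macrophages, T cells or endothelium. Across the 7 tumors, MYBL2 had r = -0.87 with the osteoblast sum (exact permutation p = 0.00933; rho = -0.79, exact p = 0.048), -0.86 with the osteoclast sum (exact p = 0.0286; rho = -0.75, exact p = 0.0663) and -0.80 with the adipocyte sum (exact p = 0.0365; rho = -0.71, exact p = 0.0881), sizes near its r of 0.85 with MKI67. Of 24 relations between the 6 factors and the osteocyte, osteoblast, osteoclast and adipocyte sums, FOXM1 (-0.79, exact p = 0.0361; rho = -0.57, exact p = 0.2) and E2F8 (-0.76, exact p = 0.031; rho = -0.71, exact p = 0.0881) also had p under 0.05 with the osteoclast sum, and none passed after adjustment over the 24 (adjusted p = 0.175 for these 5). Without the 2 tumors farthest from the median of each sum (F and G for the osteoblast sum, D and F for the osteoclast and adipocyte sums) r of MYBL2 was -0.58, -0.50 and -0.06 (exact p from 0.358 to 0.983), and r with the osteoclast sum was -0.32 for FOXM1 and -0.73 for E2F8 (exact p = 0.7 and 0.25). E2F7 had r = -0.69 with the adipocyte sum (exact p = 0.0923; rho = -0.46, exact p = 0.302) and -0.86 without tumors D and F (exact p = 0.00833). The part of these cells in the levels of the factors was not tested.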

How the data were processed

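Polyadenylated RNA was sequenced from tumor and bone of 7 dogs (14 libraries). Per the methods and processing notes, the authors trimmed reads with Trimmomatic, mapped them with HISAT2 2.2.1 to CanFam3.1 and counted them on Ensembl genes with StringTie 1.3.3. The deposited values are raw counts per gene; strand and multi-mapping settings were not given in the sources used here. Every column was matched to a library by name.

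The edgeR 4.0.16 quasi-likelihood test (R 4.3.3) with TMM normalization was run on 27655 genes, those counted in any library, with terms for dog and for tissue and Benjamini-Hochberg adjustment (FDR threshold 0.05). The block follows from the shared animal. Deviations of bone and tumor from the tissue means had a median correlation of 0.104 within dogs (0.0236 to 0.142, 5 of 7 over 0.1) and -0.0218 between dogs, over 14461 genes. Normalized counts were scaled to the mean effective library size, and log2 values used a pseudocount of 0.5. Relations used exact permutation over all 5040 pairings and differences between genes exact sign flips over dogs (128), in SciPy 1.17.1 and NumPy 2.4.6. DESeq2 1.42.0 and limma 3.58.1 served as alternatives, beside other size factors, filterByExpr, no replicate block, the thresholds of the study, another pseudocount, the variance stabilizing transformation and the omission of dogs. The scripts were tested on simulated data.

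The supplementary tables tied 2292 identifiers to a symbol, and 2267 symbols had 1 identifier. Named genes are the 6 factors, both markers, the genes of the lists and those most like each factor (5 for MYBL2, 3 for each other). Members and lists were chosen with earlier results of these data known. The RefSeq gene table is of another assembly, so no coordinates or sequences are given. A cell type list fixed beside the others is not reported here. Each p-value rests on 1 library per tissue and dog. The sign-flip p-values measure the spread of differences between dogs, and the permutation p-values the association of values across dogs. The edgeR p-values set the tissue effect against the variation left after the terms of the design.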

Additional observations from a re-analysis of the deposited data

How the results depend on the processing

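All 6 factors stayed called as higher in tumor under the DESeq2 Wald test, limma voom, DESeq2 size factors, filterByExpr, the thresholds of the study, without the replicate block (unpaired, 6) and in each omission of 1 dog (6 to 6). Without dogs A and B, 5 were called. The FDR of MYBL2 ran from 2.77e-12 to 0.0481 over all alternatives and that of E2F2 from 3.38e-07 to 0.111. All genes called numbered 1079 in the reported test, 3762 by the DESeq2 Wald test, 1682 after filterByExpr and 270 without dogs A and B.

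The number of factors related to MKI67 was 3 in the reported test, 0 without the 2 farthest tumors, 1 for differences within dogs (replicate block) and 0 to 4 when 1 dog was left out. For TOP2A it was 2 in the reported test, 1 by Spearman's rho, 0 without the 2 farthest tumors, 1 in forelimb tumors and 1 to 3 when 1 dog was left out. Without the 2 farthest tumors r turned negative for E2F1 (-0.38) and E2F7 (-0.29) with MKI67 and for E2F1 (-0.30), E2F2 (-0.42), E2F7 (-0.84) and E2F8 (-0.44) with TOP2A. When 1 dog was left out, r ran from -0.0041 to 0.48 for E2F1 and from -0.23 to 0.73 for E2F7 with MKI67, and from -0.083 to 0.62 for E2F2 and -0.48 to 0.81 for E2F7 with TOP2A.

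Of 12 differences in rise between a factor and a marker, 4 passed in the reported test, 10 after the variance stabilizing transformation (all but those of MYBL2), 4 with no replicate block and 3 to 4 when 1 dog was left out (without dog C, with FOXM1 against TOP2A in place of E2F7 against MKI67). That transformation compresses differences at low counts. The difference between MYBL2 and MKI67 turned to -0.012 under it and ran from -0.21 to 0.15 when 1 dog was left out, and that between E2F8 and MKI67 from -0.45 to 0.014. In alternatives chosen after seeing the data, 1 pair of neighbours in the order of the rises passed after the transformation, against 0 in the reported test. When 1 dog was left out, 0 to 1 pairs passed (1 without dog B or G). The order also moved after the transformation, with E2F1 at -1.36 from MKI67, E2F7 at -1.46 and E2F2 lowest at -1.73. Apart from the counts by construction, the cause of these shifts was not tested. E2F2 had the fewest counts of the 6, and 7 dogs allow no sign-flip p below 0.0156.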

Other observations

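No relation between the level of a factor in bone and in the tumor of the same dog was detectable at this number of animals. Over 7 dogs, Pearson's r between the 2 tissues ran from -0.55 for E2F1 (exact permutation p = 0.203; rho = -0.71, exact p = 0.0881) to 0.45 for E2F7 (exact permutation p = 0.313; rho = 0.54, exact p = 0.236). MYBL2 had r = -0.36 (exact permutation p = 0.439; rho = -0.57, exact p = 0.2). These values are given with no explanation.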
